A study of Mus musculus with 12 samples.

Results

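Genes of the intercalated disc, 10 in all, were selected by name: the connexins Gja1, Gja5 and Gjc1, the desmosome genes Dsp, Pkp2, Dsg2, Dsc2 and Jup, the cadherin gene Cdh2, and Popdc2. Each was read from the gene-level row that carries its symbol alone. Of the 10 genes listed, 9 had such a row, among 23332 rows (transcript clusters) in all, and together they had 121 of the 229581 exon-level probe sets. Dsp, which encodes desmoplakin, had no row under its own symbol at either level and is not analysed here. The samples were mouse embryonic stem (ES) cells and their progeny in a cardiomyocyte differentiation culture, hybridised to Affymetrix exon arrays. Day 0 was the undifferentiated state, day 7 that of embryonic bodies, and day 14 that of cardiac bodies, and each stage had 2 samples. The labels name no genotype, line, sorting step or added agent for any stage, and all stages share a DMEM-based medium with serum. Whether both samples of a stage were separate cultures is not stated. The p-values therefore rest on differences between samples that could be technical. Every sample was bulk RNA, so more cells of a type and more RNA per cell cannot be told apart.

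The intercalated disc is the contact between the ends of neighbouring heart muscle cells. It joins them in several ways: gap junction channels built of connexins pass current from cell to cell, adherens junctions built on N-cadherin anchor the actin of the myofibrils, and desmosomes built on desmosomal cadherins, plakoglobin, plakophilin and desmoplakin anchor desmin filaments. Connexins, desmosomes and cadherins also occur outside the heart, in epithelia, endothelia and ES cell colonies, whereas Popdc2 belongs to the Popeye family of cAMP-binding membrane proteins, known mainly from striated muscle.

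At day 14 the genes of the disc had not moved as a block. Popdc2 and Cdh2, the gene of N-cadherin, rose strongly against ES cells, by 6.06 ± 0.31 and 4.45 ± 0.31 on the log2 scale (limma adjusted p = 0.00191 and 0.00368), which is 66.9 and 21.9 times in linear signal. Dsc2, the desmocollin gene, rose by 2.78 ± 0.37 at day 7 (adjusted p = 0.0124). The connexins and the other 3 measured desmosome genes passed the test in no comparison at the gene level. Each change is given on the log2 scale with its standard error (±) from limma, fitted to the whole table, and was called at an adjusted p under 0.05. By this rule 2 of the 9 genes rose at day 7 against day 0, where 5.35% of all clusters rose. Against day 0, 2 of 9 rose at day 14, where 2.63% of all clusters rose, and from day 7 to day 14 it was 1 of 9, where 2.11% rose. None of the 9 fell in any comparison, where 5.28%, 0.686% and 1.02% of all clusters fell. Both day 7 samples lay above both day 0 samples in 6 of 9 genes and below in 0, where 26.5% and 30.0% of all clusters did. At day 14 against day 0 this was 6 above and 1 below, where it was 21.9% and 24.1%, and from day 7 to day 14 it was 4 and 3, where it was 25.8% and 22.3%. Some of these counts rest on narrow gaps between the nearest samples. At day 7 these were 9.41 against 9.40 for Gjc1 and 9.09 against 9.04 for Pkp2. For Gja5 at day 14 against day 0 it was 5.91 against 5.90. On the mean of a gene's exon-level probe sets, a second summary of the same arrays, 3, 3 and 1 of the 9 rose, where 9.18%, 6.22% and 5.87% of all genes did. The median change of the 9 genes was 0.38 at day 7, 0.62 at day 14 and 0.32 from day 7 to day 14, beside -0.0229, -0.0272 and 0.0103 over all clusters.

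**Figure D1:**
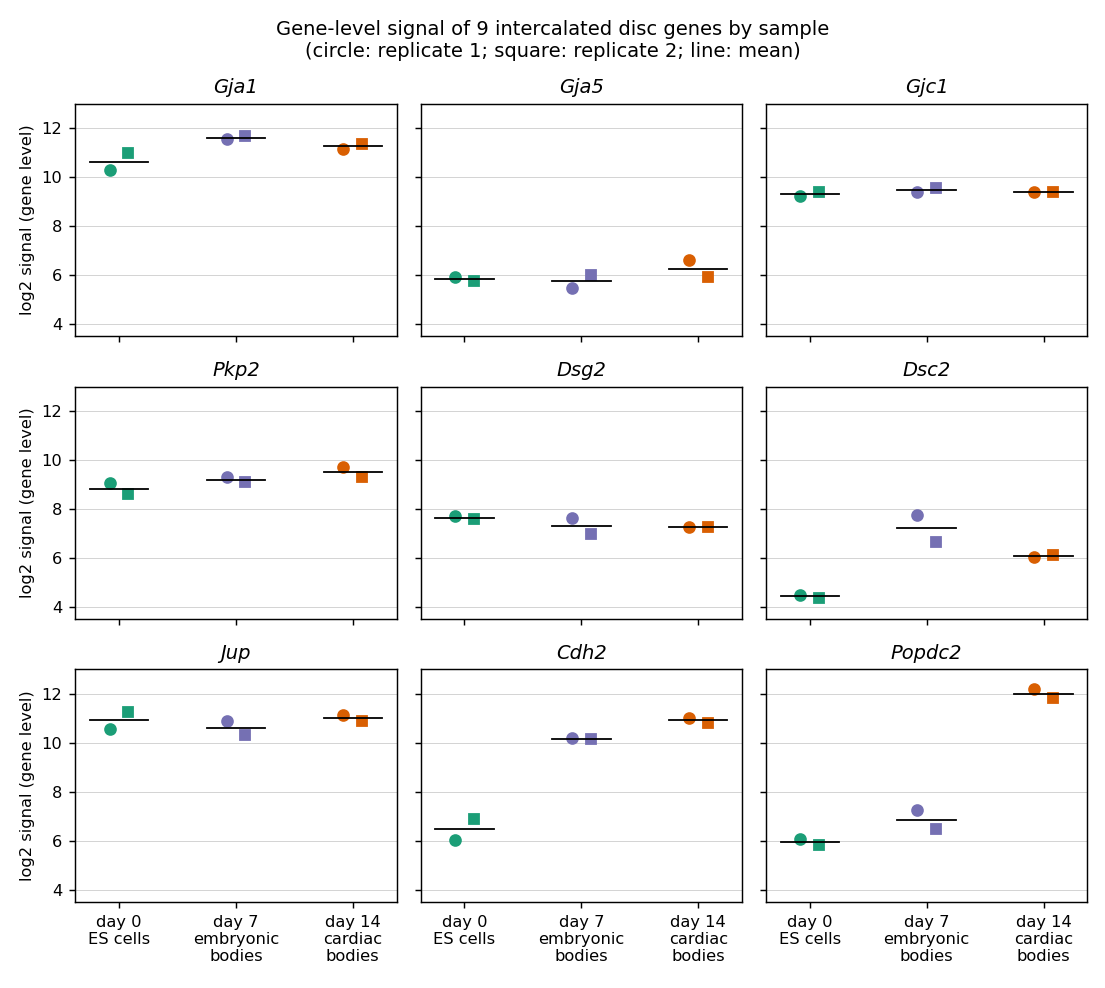
Gene-level log2 signal (vertical axis) of the 9 measured genes in each of the 6 samples, by stage (horizontal axis); circles are replicate 1, squares replicate 2 and lines the mean of the 2. Popdc2 lies between 5.83 and 7.25 in the samples of days 0 and 7 and at 11.81 and 12.21 at day 14, while Cdh2 is already at 10.14 and 10.19 at day 7.

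Gja1 encodes connexin-43, the main gap junction protein of ventricular muscle, which ES cells also make. In log2 signal, Gja1 was at 10.28 and 10.98 at day 0, 11.55 and 11.68 at day 7, and 11.15 and 11.36 at day 14. Both later stages lay above both ES cell samples, and day 14 lay below day 7. The difference was 0.98 ± 0.27 at day 7 (95% interval 0.31 to 1.66, limma adjusted p = 0.0831) and 0.62 ± 0.27 at day 14 (-0.05 to 1.30, adjusted p = 0.323), and neither passed the test. The 2 ES cell samples differed by 0.70, which is larger than the difference of 0.62 between the means of days 0 and 14. The samples of day 7 differed by 0.13 and those of day 14 by 0.21. The difference of 0.36 between the means of days 7 and 14 did not pass either (adjusted p = 0.583). With the mean of its 3 exon-level probe sets in place of the gene-level row, the day 7 value was 0.98 ± 0.25 and passed (adjusted p = 0.0343). That call was lost without replicate 1 of the ES cells (0.66, adjusted p = 0.169), without replicate 1 of the embryonic bodies (1.08, adjusted p = 0.0745) and without replicate 2 of the embryonic bodies (0.89, adjusted p = 0.129).

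Gja5 encodes connexin-40, known from the atria, the conduction system and arterial endothelium. Gja5 had log2 signals of 5.90 and 5.76 at day 0, 5.48 and 6.01 at day 7, and 6.61 and 5.91 at day 14. Except for 6.61, these values lay below the gene-level sample medians of 6.47 to 6.79, and no detection call was available. The day 14 samples lay above those of day 0 and overlapped those of day 7, and they differed from each other by 0.70. The lower day 14 sample barely exceeded the higher day 0 sample, at 5.91 against 5.90, while the medians of these samples were 6.79 and 6.47. The difference at day 14 was 0.43 ± 0.31 against day 0 (95% interval -0.34 to 1.20, limma adjusted p = 0.567) and 0.52 ± 0.31 against day 7 (adjusted p = 0.474). Its 8 exon-level probe sets did not move alike. Between day 7 and day 14 they changed by -0.11 to 3.20, with a median of 0.66, and 1 of the 8 passed the test over all probe sets, where 1.93% of all probe sets rose. This probe set, 4599258, was singled out after its values were seen. Its log2 signal was 3.96 and 5.20 at day 0, 3.30 and 3.23 at day 7, and 6.96 and 5.97 at day 14. From day 7 to day 14 this was a rise of 3.20 ± 0.51 (adjusted p = 0.0327). All of these signals were low, below the exon-level sample medians of 7.11 to 7.42. In 5 of the 8 probe sets both day 14 samples lay above both day 7 samples, where this held for 25.8% of all probe sets. The mean of the 8 probe sets changed by 0.93 ± 0.30 between days 7 and 14 (adjusted p = 0.119).

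Gjc1 encodes connexin-45, the connexin of the earliest heart tube and of the nodes. Gjc1 stood at log2 signals of 9.21 and 9.40 at day 0, 9.41 and 9.56 at day 7, and 9.38 and 9.40 at day 14. The lowest and the highest of the 6 samples were 0.35 apart. The 95% interval of the day 14 difference from day 0 was -0.35 to 0.52, and that of day 7 was -0.25 to 0.62 (limma adjusted p = 0.876 and 0.594). One of its 10 probe sets, 5594846, singled out after its values were seen, went another way. It stood at 8.71 and 9.0 at day 0, at 7.17 and 7.15 at day 7, and at 9.35 and 9.13 at day 14. It fell by 1.70 ± 0.27 at day 7 (adjusted p = 0.0161), where 3.71% of all probe sets fell, and rose by 2.08 ± 0.27 from day 7 to day 14 (adjusted p = 0.0165), while none of the other 9 passed in either comparison. Relative to the median of the gene's probe sets its use changed by -1.86 ± 0.13 and then by 2.15 ± 0.14. Neither passed the test of exon usage (adjusted p = 0.211 and 0.251), a test in which none of 95498 and 100843 eligible probe sets passed.

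The stretch just before the start site is shown for both connexins with a promoter in the RefSeq table (build GRCm38.p6). Each is 250 bases, 5′ to 3′ on the plus strand, at chr10:56377050-56377299 for Gja1 and chr3:97032152-97032401 for Gja5. Capitals mark matches, on either strand, to the letters of 4 known motifs. The T-box letters were GGTGTNA. For NK2 factors TNAAGTG was searched. The GATA letters were AGATAA. A GC box was GGGCGG.
Gja1: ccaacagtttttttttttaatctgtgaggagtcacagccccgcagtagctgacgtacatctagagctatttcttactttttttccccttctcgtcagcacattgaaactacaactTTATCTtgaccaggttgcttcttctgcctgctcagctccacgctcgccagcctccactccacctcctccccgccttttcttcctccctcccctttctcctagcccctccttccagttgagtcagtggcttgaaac
Gja5: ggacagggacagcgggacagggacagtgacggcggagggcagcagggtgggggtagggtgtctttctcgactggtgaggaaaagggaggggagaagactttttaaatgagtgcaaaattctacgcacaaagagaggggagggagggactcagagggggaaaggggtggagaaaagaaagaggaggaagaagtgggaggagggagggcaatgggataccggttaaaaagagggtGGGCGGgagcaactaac
Gja1 held the GATA letters once, on the opposite strand, and Gja5 the GC box letters once. Over 32851 promoter stretches of the same length, 10.0% held the GATA letters, 32.7% the GC box letters, 8.6% the T-box letters and 10.1% the NK2 letters. A match describes the letters in this window only.

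Among the desmosome genes, 1 of the 4 measured passed the test. Dsc2 encodes desmocollin-2, a desmosomal cadherin of heart and epithelia. The log2 signal of Dsc2 was 4.47 and 4.38 at day 0, 7.76 and 6.64 at day 7, and 6.02 and 6.10 at day 14. Every later sample lay above both ES cell samples, and day 7 lay above day 14. After the rise at day 7, the difference of day 14 from day 0 was 1.63 ± 0.37 (95% interval 0.71 to 2.56, limma adjusted p = 0.0936) and that of day 14 from day 7 was -1.14 ± 0.37 (-2.07 to -0.22, adjusted p = 0.194). The 2 embryonic body samples differed by 1.12, and the change at day 7 was 2.22 without replicate 1 and 3.34 without replicate 2. Without replicate 1 or replicate 2 of the ES cells the day 7 call was lost, with adjusted p = 0.0631 and 0.0699. In a fit of only the 4 samples of days 0 and 14, the day 14 difference from day 0 passed (adjusted p = 0.0281). Leaving out either embryonic body sample alone gives the same test, because a single sample left in a stage adds nothing to the spread. The difference also passed on the exon-level mean (1.67 ± 0.33, adjusted p = 0.0234). The latter call was lost without any 1 of the ES cell or cardiac body samples (adjusted p = 0.0914 to 0.120). Without replicate 2 of the embryonic bodies, the exon-level mean fell by 1.65 from day 7 to day 14 (adjusted p = 0.0101).

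Of the 19 probe sets of Dsc2, 14 rose at day 7, where 4.50% of all probe sets did, and in 18 both samples lay above both ES cell samples, where 24.8% did. From day 7 to day 14 both samples lay below in 14 of 19, where 20.6% did, and 1 fell by the test, where 0.689% did. Markers of other cell types moved at day 7 too. Of 12 measured epithelium markers 6 rose and none fell, with a mean log2 level of 7.74 and 7.61 at day 0, 8.89 and 9.07 at day 7, and 7.24 and 7.43 at day 14. Of 12 endothelium markers 7 rose and 1 fell, and of 10 fibroblast markers 3 rose and 1 fell. Of all clusters 5.35% rose and 5.28% fell at day 7. Fibroblast markers were higher in the same embryonic body sample as Dsc2, at 7.92 in replicate 1 and 6.49 in replicate 2, whereas endothelium markers stood at 7.67 and 8.5. Their part in the level of Dsc2 was not tested.

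Dsg2 encodes desmoglein-2, the desmosomal cadherin that pairs with desmocollin-2 in heart muscle. Its log2 signal was 7.72 and 7.57 at day 0, 7.63 and 6.98 at day 7, and 7.24 and 7.26 at day 14. Both cardiac body samples lay below both ES cell samples, by a mean of 0.39 ± 0.25 (95% interval of the change -1.03 to 0.24, limma adjusted p = 0.516), and the embryonic body samples overlapped both. In 10 of its 18 probe sets day 14 lay below day 0, where 23.4% of all probe sets did, and at day 7 this held for 5, where 29.9% did. None of the 18 passed the test in any comparison. None of the 121 probe sets of the 9 genes fell at day 14 against day 0, where 0.450% of all probe sets did.

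Pkp2 encodes plakophilin-2, an armadillo protein of the desmosomal plaque. Log2 signals of Pkp2 were 9.04 and 8.59 at day 0, 9.30 and 9.09 at day 7, and 9.70 and 9.32 at day 14. At the gene level each stage thus lay above the one before without overlap, but narrowly. The nearest samples were at 9.09 (day 7) against 9.04 (day 0) and at 9.32 (day 14) against 9.30 (day 7). The medians of these samples differed by more, at 6.66 against 6.47 and 6.79 against 6.62. On the exon-level mean the samples of day 0 (8.69 and 8.25) and day 7 (8.93 and 8.59) overlapped. The gene-level differences were 0.38 ± 0.24 at day 7, 0.69 ± 0.24 at day 14 (95% interval 0.09 to 1.30) and 0.32 ± 0.24 between days 7 and 14. Their limma adjusted p were 0.408, 0.232 and 0.594. In 14 of its 17 probe sets both day 14 samples lay above both ES cell samples, where 21.9% of all probe sets did. At day 7 this held for 9 of the 17, where 24.8% did, and 2 lay below, where 29.9% did. The probe sets of a gene are read from the same arrays, so such counts, here and for the other genes, are not independent of each other.

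Jup encodes plakoglobin, which serves both desmosomes and adherens junctions. Its log2 signal was 10.58 and 11.26 at day 0, 10.87 and 10.32 at day 7, and 11.12 and 10.89 at day 14. The samples of day 0 overlapped those of both later stages. The change at day 14 from day 0 was 0.08 ± 0.31 (95% interval -0.70 to 0.86, limma adjusted p = 0.941), and it was negative with each sample centred on its median, at -0.05. Day 14 lay narrowly above day 7, at 10.89 against 10.87 for the nearest samples, and the change of 0.41 ± 0.31 did not pass (adjusted p = 0.587). In 8 of its 13 probe sets both day 14 samples lay above both day 7 samples, where 25.8% of all probe sets did. In 0 they lay below, where 20.6% did. The 2 samples of day 0 were 0.68 apart, more than any difference between stage means.

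**Figure D2:**
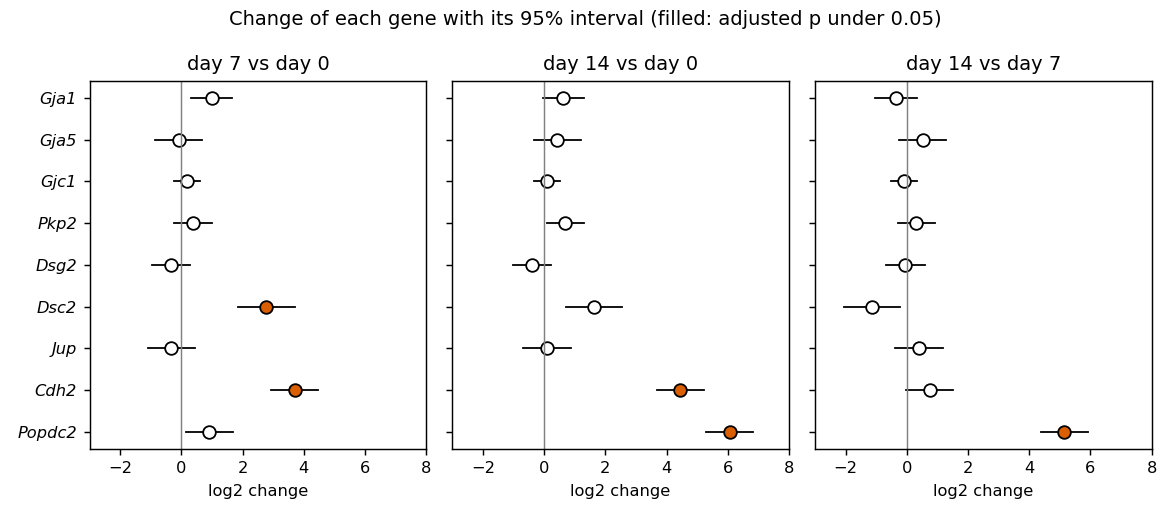
Log2 change of each gene (horizontal axis) in the 3 comparisons, with its 95% interval from the limma fit as a line; filled points passed at an adjusted p under 0.05. Cdh2 and Dsc2 are filled at day 7, Cdh2 and Popdc2 at day 14, and Popdc2 alone between days 7 and 14.

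N-cadherin came up early. Cdh2 carries the adherens junctions of heart muscle and of many mesodermal and neural cells. On the log2 scale Cdh2 stood at 6.04 and 6.89 at day 0, 10.19 and 10.14 at day 7, and 11.03 and 10.81 at day 14. The stages did not overlap, and the ES cell samples were the most different pair, 0.86 apart. It rose by 3.70 ± 0.31 at day 7 (13 times, limma adjusted p = 0.00387), and the further difference of 0.76 ± 0.31 to day 14 (95% interval -0.01 to 1.52, adjusted p = 0.290) did not pass. In 18 of its 19 probe sets the rise passed at day 7 and again in 18 of 19 at day 14, where 4.50% and 2.79% of all probe sets rose. Between days 7 and 14 both samples lay above in 17 of 19, where 25.8% did, and none passed.

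Popdc2 came up late. Its log2 signal was 6.06 and 5.83 at day 0, 7.25 and 6.48 at day 7, and 12.21 and 11.81 at day 14. Both day 14 samples lay far above all other samples, and day 7 lay above day 0. The day 7 difference of 0.92 ± 0.31 (95% interval 0.14 to 1.69) did not pass (limma adjusted p = 0.137), and the embryonic body samples differed by 0.78. From day 7 to day 14 Popdc2 rose by 5.15 ± 0.31 (35.4 times, adjusted p = 0.00389). All 14 of its probe sets rose in this interval, by 2.34 to 6.82, where 1.93% of all probe sets rose. At day 7, 3 of the 14 had risen against day 0, where 4.50% of all probe sets did. The mean of the 14 probe sets at day 7 was 0.93 ± 0.27 above day 0 (adjusted p = 0.0530), and passed without replicate 2 of the embryonic bodies (1.30, adjusted p = 0.0162). Its relative Popdc3, the other measured Popeye gene, had log2 signals of 4.18 and 4.73 at day 0, 5.22 and 4.24 at day 7, and 6.79 and 6.32 at day 14, a difference of 2.10 ± 0.40 from day 0 (adjusted p = 0.0575).

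The stretch before the start site of Popdc2 is shown because no gene of the list changed more. It is 250 bases of RefSeq sequence (build GRCm38.p6, plus strand, chr16:38361940-38362189), with capitals as above.
Popdc2: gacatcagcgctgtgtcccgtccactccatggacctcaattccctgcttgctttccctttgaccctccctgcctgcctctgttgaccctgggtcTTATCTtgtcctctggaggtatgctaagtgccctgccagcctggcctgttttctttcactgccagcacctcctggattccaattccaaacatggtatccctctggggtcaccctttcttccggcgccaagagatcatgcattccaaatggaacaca
It held the GATA letters once, on the opposite strand, and none of the other 3 sets of letters.

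**Figure D3:**
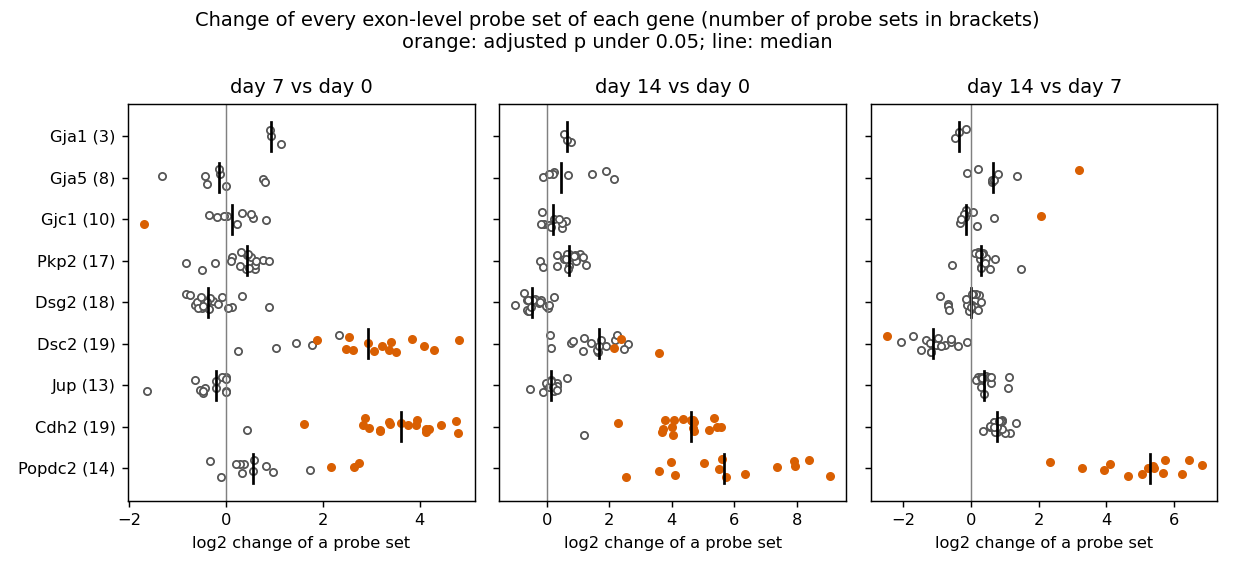
Log2 change of each exon-level probe set (points, horizontal axis) of the 9 genes in the 3 comparisons, with the median as a line; orange points passed at an adjusted p under 0.05 over all 229581 probe sets. All 14 probe sets of Popdc2 are orange between days 7 and 14, and 1 of 10 probe sets of Gjc1 stands apart from the rest at -1.70 and 2.08.

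Exon usage, the signal of a probe set relative to the median of its gene in the same sample, was tested only where a gene's median reached the median of the table in both stages. This took in Dsg2, Gjc1, Jup and Pkp2 in the comparisons with day 0, with 55 and 56 probe sets, and Cdh2 as well between days 7 and 14, with 76. None passed by limma in any comparison, and 0% of all eligible probe sets did. At an unadjusted p under 0.05 there were 14 of 55 at day 7, 7 of 56 at day 14 and 4 of 76 between them, which is 25.5%, 12.5% and 5.3%, beside 8.27%, 5.64% and 4.79% of all eligible probe sets. Pkp2 held 9 of the 14 and 6 of the 7, all of them with usage above day 0, in comparisons that share the day 0 samples. The reference of these values, the median of the 17 probe sets of Pkp2 in each sample, changed by -0.0883 at day 7, while the gene-level row changed by 0.38 and the median of the single probe set changes was 0.43. A usage value of Pkp2 at day 7 is thus the probe set's own change plus the size of that shift. At day 14 the reference changed by 0.24 and the gene-level row by 0.69. The lowest adjusted p of the 3 comparisons were 0.211, 0.662 and 0.251.

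The profiles most like those of the genes that changed were sought over the 6 samples among 14846 other genes, by the root mean square distance between centred log2 profiles. The nearest to Popdc2, whose profile spanned 6.38, were Plppr5 (distance 0.33), Afp (0.38) and Kcnj5 (0.41). The nearest to Cdh2, which spanned 4.99, were Camk2d (0.24), Nfia (0.27) and Tmem176b (0.31). The nearest to Dsc2, which spanned 3.39, were Serinc5 (0.10), Plxna2 (0.14) and Zfp9 (0.16). All of these share the same 6 arrays.

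Further proteins located at the disc were read as a list. Of 20 measured disc-associated genes 8 rose at day 7, 12 at day 14 and 8 between days 7 and 14, and none fell in any of these, with a median change of 0.57, 1.40 and 0.86. Of all clusters 5.35%, 2.63% and 2.11% rose in these comparisons. The largest rises at day 14 were those of Sorbs2, an actin-binding adaptor, by 6.57 ± 0.43 (limma adjusted p = 0.00319), Ldb3, a Z disc protein, by 4.67 ± 0.30, Csrp3, the muscle LIM protein, by 4.55 ± 0.31, and Xirp1, an actin-binding Xin repeat protein, by 4.11 ± 0.25. At day 7 Sorbs2 had risen by 2.41 ± 0.43 and Fhl2, a LIM protein, by 1.78 ± 0.23, Ank3, an ankyrin that anchors membrane channels, by 1.60 ± 0.25 and Ilk, the integrin-linked kinase, by 1.47 ± 0.20. Several of these genes also belong to the sarcomere or its edge.

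Of 22 other adherens junction genes, catenins and linkers, 4 rose at day 7 and 4 at day 14 against day 0, where 5.35% and 2.63% of all clusters rose, and none fell, where 5.28% and 0.686% fell. Between days 7 and 14 there were 2 that rose and 2 that fell, where 2.11% and 1.02% did. Ctnna3, alpha-T-catenin, which ties the junction to desmosomes in heart muscle, rose by 3.44 ± 0.30 at day 14 (limma adjusted p = 0.00638) and by 3.38 ± 0.30 from day 7. Cdh13, a cadherin without a transmembrane part, rose by 4.64 ± 0.25 at day 14 and by 3.67 ± 0.25 from day 7. Zyx, the focal adhesion protein zyxin, rose by 1.23 ± 0.26 at day 7 and by 1.77 ± 0.26 at day 14. Cdh3, P-cadherin, rose by 1.95 ± 0.41 at day 7 (adjusted p = 0.0409). Cdh5 and Cdh11, of endothelium and mesenchyme, fell by 3.22 ± 0.31 and 3.22 ± 0.48 from day 7 to day 14, after rises of 4.63 ± 0.31 and 6.28 ± 0.48. At day 14 Cdh11 was still 3.05 ± 0.48 above day 0 (adjusted p = 0.0363), and the difference of 1.41 ± 0.31 for Cdh5 did not pass (adjusted p = 0.0860).

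Of 13 other connexins and pannexins measured, none rose in any comparison, where 5.35%, 2.63% and 2.11% of all clusters rose. Gjb5, a connexin known from skin and trophoblast, fell by 1.36 ± 0.18 at day 7 (limma adjusted p = 0.0122) and by 1.46 ± 0.18 at day 14 (adjusted p = 0.0171), where 5.28% and 0.686% of all clusters fell. Of 10 other desmosome and cornified envelope genes, 1 rose and 1 fell at day 7, where 5.35% and 5.28% of all clusters did. At day 14 against day 0, 1 rose, where 2.63% did. Perp, a desmosomal membrane protein, rose by 0.96 ± 0.21 at day 7 and by 1.28 ± 0.21 at day 14 (adjusted p = 0.0456 and 0.0405). Pkp4, a plakophilin relative, fell by 0.75 ± 0.17 at day 7 (adjusted p = 0.0468).

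**Figure D4:**
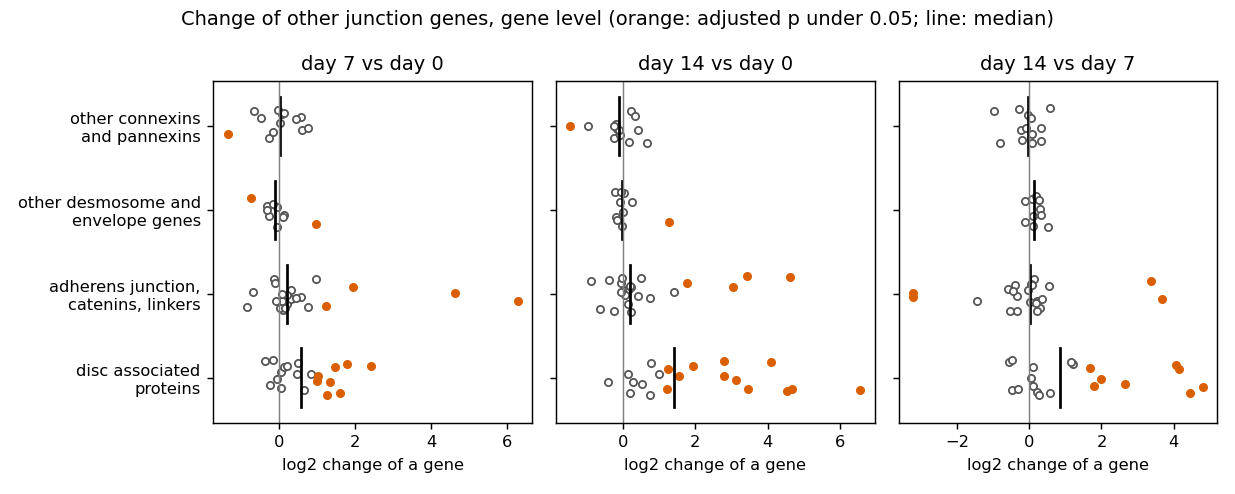
Log2 change (horizontal axis) of each measured gene of 4 further lists of junction genes in the 3 comparisons; orange points passed at an adjusted p under 0.05 and lines are medians. The disc-associated genes have 12 of 20 orange points at day 14, and the other connexins and pannexins have 1 of 13.

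The labelled stages were set against marker lists. Cardiomyocyte markers had a mean log2 level of 5.39 and 5.43 at day 0, 5.68 and 5.79 at day 7, and 10.90 and 10.66 at day 14. Of these markers 10 of 11 rose at day 14 against day 0, where 2.63% of all clusters did. Pluripotency markers stood at 10.54 and 10.47 at day 0, at 7.82 and 7.63 at day 7, and at 9.69 and 9.94 at day 14. The cardiac bodies thus lay between the other stages, nearer to the ES cells. Against day 0, 12 of 14 such markers fell at day 7 and 2 at day 14, where 5.28% and 0.686% of all clusters fell. Their median change was -2.74 and -0.60. From day 7 to day 14, 9 of the 14 rose, where 2.11% of all clusters did. Smooth muscle markers stood at 7.82 and 8.01 at day 7 and 8.44 and 8.18 at day 14, against 6.11 and 6.02 at day 0. Endothelium markers stood at 6.25 and 6.27 at day 0 and 6.31 and 6.49 at day 14. The part of these other cells in the levels of the connexin and desmosome genes at day 14 was not tested.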

How the data were processed

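The authors deposited log2 signals. RMA and Affymetrix Power Tools are named, per the submitters' processing notes, with no version in the sources used here. Core probe sets defined on mm9 were used per the labels, after TRIzol extraction, ribosomal RNA reduction and whole-transcript amplification, and each of the 6 samples has 1 gene-level and 1 exon-level profile, 12 entries in all. No detection call comes with either table, and every row was therefore kept. Precision is limited by the number of arrays. Sample medians were 6.47 to 6.79 (gene level) and 7.11 to 7.42 (exon level), and the 2 samples of a stage correlated across clusters at 0.973 to 0.978.

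Symbols came from the platform annotation, updated through RefSeq (GRCm38.p6). A single symbol was found for 14996 gene-level rows, more than 1 for 1019 and none for 7317. For exon-level rows these were 209279, 4446 and 15856. The test was limma's (version 3.58.1, under R 4.3.3) with lmFit followed by eBayes, 2-sided, run over each whole table with all 6 samples in 1 fit, and p-values were adjusted by Benjamini-Hochberg over all rows. The 3 comparisons share samples. Probe sets were tested in the same way, and exon usage in genes with 4 or more probe sets. For the latter a gene's median had to reach percentile 50 of the table in both stages, and a probe set's mean percentile 25 in 1 of them, and a call needed a difference of 1 as well. All reported values come from the deposited signals. The procedures were also run, after the main fits, on simulated data with known changes. The simulated spread of each row was taken from these data, and exon usage was run there without its filter on level.

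All listed genes were named in every comparison. From each further list at most the 4 called genes with the largest change in a comparison were named. The 3 nearest profiles were named for genes called in at least 1 comparison. The genes and lists were chosen with earlier results of these data known. Of the 10 genes, 5 had a promoter in the RefSeq table. Protein sequences were not used here. The alternatives were centring, quantile normalization, a filter on low rows, fits of 4 samples, an intensity trend, a replicate block, other summaries of a gene and leaving out each sample.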

Additional observations from a re-analysis of the deposited data

How the results depend on the processing

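With samples centred on their medians or quantile normalized, without low rows, with an intensity trend or with a replicate block, the gene-level counts of called genes stayed at 2 (day 7), 2 (day 14) and 1 (day 14 against day 7), with the same genes. Fits of only the 4 samples compared gave 2, 3 and 1, Dsc2 being added at day 14. Leaving out 1 sample gave 1 to 2, 2 to 3 and 1 to 1. On exon-level means the counts were 3, 3 and 1, and 2 to 3, 2 to 3 and 1 to 2 with 1 sample left out. The day 7 count there was 4 without low rows and with the replicate block, which added Popdc2 (0.93, adjusted p = 0.0447 and 0.0366). With probe set medians it was 3, with Popdc2 (1.28, adjusted p = 0.0176) in place of Gja1 (0.86, adjusted p = 0.111). No probe set was called for exon usage under any alternative run. The labels give no shared culture for equal replicate numbers, and the differences between replicates 1 and 2 correlated across clusters at 0.083 (days 0 and 7), 0.486 (days 0 and 14) and 0.091 (days 7 and 14). The replicate block changed no gene-level call, with Popdc2 at 0.92 and adjusted p = 0.0551 at day 7.

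The sign turned only in changes that had not passed. Centring shifts all day 14 changes by -0.131 and those of day 7 by -0.0906, and gave -0.0428 for Gjc1 and -0.0483 for Jup at day 14. On exon-level means it gave -0.0686 for Gjc1 at day 7 and -0.0472 for Jup at day 14. With 1 sample left out, the gene-level change ran from -0.67 to 0.0121 for Jup and from -0.35 to 0.18 for Gja5 at day 7. It ran from -0.0061 to 0.18 for Gjc1 and from -0.26 to 0.42 for Jup at day 14, and from -0.38 to 0.27 for Dsg2 from day 7 to day 14. On exon-level means the range was -0.36 to 0.15 for Gja5, -0.0387 to 0.086 for Gjc1 and -0.60 to 0.0443 for Dsg2 at day 7. There it was -0.21 to 0.47 for Jup at day 14 and -0.44 to 0.21 for Dsg2 from day 7 to day 14. The exon-level mean of Gjc1 changed by 0.17 from day 7 to day 14, and by -0.0663 with probe set medians. Pkp2 at day 7 was -0.0883 with probe set medians. The cause was not tested.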

Other observations

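Transcription factors of heart development, among them known regulators of connexin genes, were read as a further list. Of 16 measured, 5 rose at day 7, 8 at day 14 and 4 from day 7 to day 14, and none fell, with a median change of 1.31, 1.53 and 0.68. Of all clusters 5.35%, 2.63% and 2.11% rose. At day 14 the largest rises were those of Tbx5, an activator of Gja5, by 5.30 ± 0.53 (limma adjusted p = 0.00892), Tbx20 by 5.01 ± 0.72 (adjusted p = 0.0268), Irx4, a ventricular factor, by 3.91 ± 0.28 (adjusted p = 0.00422) and Gata6 by 3.89 ± 0.43 (adjusted p = 0.0120). From day 7 to day 14 Tbx5 rose by 4.10 ± 0.53, Irx4 by 3.69 ± 0.28, Hopx by 2.53 ± 0.28 and Nkx2-5 by 1.63 ± 0.24. Over the same interval Gja5 changed by 0.52 ± 0.31 at the gene level (adjusted p = 0.474) and by 0.93 ± 0.30 on the exon-level mean (adjusted p = 0.119). Neither passed, while 1 of its 8 probe sets did. A link between these factors and Gja5 was not tested.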
